A study of Homo sapiens with 24 samples.

Results

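MB468 cells taken 0.5 h after a switch to homocysteine (Hcy) medium were compared with MB468 cells taken before the switch, by RNA-seq of poly(A) RNA. The 6 libraries compared, 3 at 0.5 h and 3 at 0 h, were chosen by cell line and time from the 24 libraries of the study, and every gene entry other than the spike-ins was used. MB468 stands for MDA-MB-468, a line of triple-negative breast cancer cells, which needs methionine (Met) in its medium to proliferate. The other 18 libraries were MB468 at 2 and 12 h, and MB468res-R8, a single derived clone that proliferates when Met is replaced with Hcy, at 0, 0.5, 2, and 12 h, with 3 libraries in each group. The 0 h cells were in Met+ medium with 100 µM Met, and the 0.5 h cells were in Met-Hcy+ medium, which had 370 µM DL-homocysteine and no Met. Both media were DMEM with dialyzed serum, vitamin B12, glutamine, and cysteine, so these were common to all groups. The sources used here do not say whether the 0 h cells had a change of medium. No cells were sampled 0.5 h after a change to fresh Met+ medium. The loss of Met, the arrival of Hcy, and the change of medium itself therefore cannot be told apart.

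Cells turn Met into S-adenosylmethionine, which hands its methyl group to DNA, proteins, and lipids, and Hcy is left at the end of this route. Methionine synthase, with B12 and folate, can rebuild Met from Hcy. Fresh serum, growth factors, and many stresses switch on immediate early genes, which need no new protein to be transcribed. Their short-lived mRNAs encode transcription factors such as FOS and EGR1, phosphatases that damp MAP kinase signaling, and proteins that destroy other mRNAs.

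Total counts per library ran from 11745553 to 36496655 over the 24 libraries, and the library with the lowest total was MB468 0.5 h replicate 3. Epithelial marker genes summed to between 11600 and 12020 counts per 1000000 counts (CPM) at 0 h and between 10600 and 10910 CPM at 0.5 h. Of 19 genes that mark hormone receptor-positive, stromal, blood, or endothelial cells, 15 were below 3 CPM in each of the 6 libraries, and PGR, COL1A2, and HBB had 0 counts. The other 4 were CD14 at 142 to 160 CPM, ERBB2 at 78.9 to 90.2 CPM, ESR1 at 15.7 to 20.7 CPM, and the collagen gene COL1A1, which fell from between 33.3 and 34.2 CPM at 0 h to between 26.7 and 29.3 CPM at 0.5 h. The endothelial markers CDH5 (0.869 to 2.17 CPM at 0 h and 0 to 0.297 CPM at 0.5 h), VWF, and PECAM1 also fell, at low counts, and the call for PECAM1 was lost without MB468 0 h replicate 3 or MB468 0.5 h replicate 2. The part of such cells in the results was not tested. Of the other groups, MB468 2 h replicate 2 stood apart, with 2392 CPM from 557 gene entries whose RNA has no poly(A) tail (histone and small RNA genes), against 275 to 290 CPM in the 0 and 0.5 h libraries. The labels do not say whether the 3 libraries of a group came from separate cultures, so the p-values measure the spread between these libraries, which may be technical. In bulk RNA, fewer cells of a type and less RNA per cell cannot be told apart.

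The change at 0.5 h was wide and mostly small. Of 14739 genes tested with edgeR's quasi-likelihood test, 5021 (34.1%) were called at an adjusted p under 0.05, with 2396 (16.3%) higher and 2625 (17.8%) lower at 0.5 h. The median size of the called changes was 0.33 on the log2 scale, and 3828 of them (76.2%) were under 1.5-fold. A change of at least 2-fold was seen for 500 of the called genes (3.39% of those tested), 207 higher (1.40%) and 293 lower (1.99%). The groups did not overlap in CPM for 43.6% of all genes tested. These values are relative to a scaling by TMM, which left the median of all genes at -0.01. Spike-in RNAs took 0.201% to 0.221% of the counts at 0 h and 0.229% to 0.277% at 0.5 h, a range that did not overlap. Scaling by the spike-ins moved the median of all genes to -0.20 and left 3287 calls, of which 13.96% were higher, in place of 47.7%. Under that scaling, 14 of the called genes named here were no longer called: LMO7, TGIF1, KLF9, DUSP6, HBEGF, NFKBIA, CYR61, SMAD7, INSIG1, MAT2B, DNAJB1, and MKI67, and also AHR and EGFR, which changed sign. With a minimum of 10 counts in every one of the 24 libraries, 259 genes changed at least 2-fold.

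**Figure D1:**
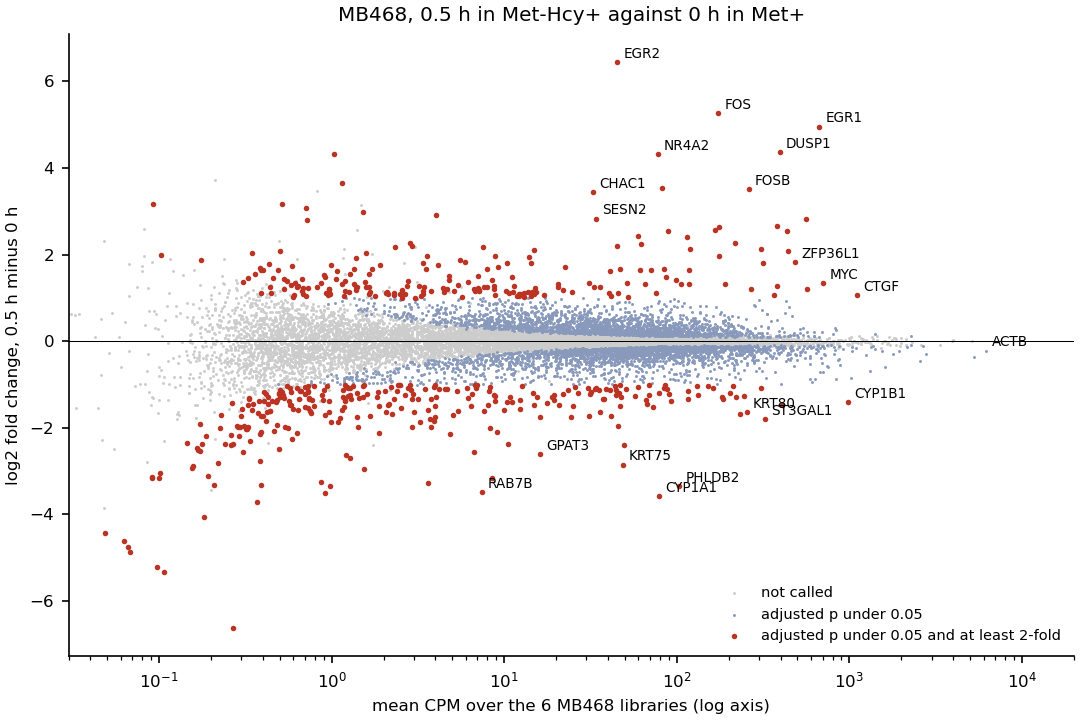
Log2 fold change in MB468 at 0.5 h (vertical axis) against the mean CPM over the 6 libraries (horizontal log axis), 1 point per gene tested, gray where not called, blue where called, and red where called and changed at least 2-fold. EGR2, FOS, EGR1, and DUSP1 stand above a log2 fold change of 4, CYP1A1, RAB7B, and PHLDB2 lie below -3, and abundant genes such as ACTB moved little.

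The EGR and NR4A genes, zinc finger and orphan nuclear receptor transcription factors of the immediate early class, were prominent among the rises, and EGR2, EGR1, NR4A2, and EGR3 were among the 10 genes named for the size of their rise. EGR2 was at 0.753, 1.16, and 1.19 CPM in the 0 h libraries and at 95.7, 76.9, and 96.0 CPM at 0.5 h, an 87.2-fold rise (log2 fold change 6.45 ± 0.14 (SE), adjusted p = 3.58e-30, edgeR). EGR1, whose gene lies at chr5:138465479-138469303 on GRCh38, went from 43.9, 42.7, and 38.4 CPM to 1241, 1236, and 1428 CPM (31.0-fold). Each 0.5 h library was far above every 0 h library for both genes, which were named by a rule that requires groups without overlap. EGR3 rose 11.6-fold and EGR4 rose 3.47-fold. NR4A2 rose from 7.33 ± 0.86 to 148 ± 13.0 CPM (SD, n = 3) and NR4A1 from 104 ± 19.4 to 662 ± 61.4 CPM. The corepressor of the EGR proteins, NAB2, fell 2.17-fold, and SRF, the factor that binds serum response elements of EGR1 and FOS, fell 1.84-fold. Of 10 tested members of this list, 6 rose and 2 fell (80% called, against 34.1% of all genes tested). Their median log2 fold change was 2.23. It was -0.0578 when 10 counts were required in every library, which left EGR2, EGR3, and EGR4 out of the test.

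The promoter of EGR1 is shown because it holds copies of the CArG box, the core of the serum response element, and because genes that moved in the opposite direction hold it too. The box was searched by name on both strands, in RefSeq windows of GRCh38.p14 from 250 bases before to 50 bases after each gene's start, and capitals mark it. EGR1 at chr5:138465354-138465425 (plus strand) has 2 boxes, whose first bases are 105 and 83 bases upstream of the start. SRF at chr6:43171219-43171268 (plus) has 2, at 30 and 10 bases upstream. The actin gene ACTG1 at chr17:81512864-81512913 (minus) has 1, at 94 bases upstream, and the LIM-domain cofactor gene FHL2 at chr2:105438585-105438634 (minus) has 1, at 101 bases upstream.
EGR1: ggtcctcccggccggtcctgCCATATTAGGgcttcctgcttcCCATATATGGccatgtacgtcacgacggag
SRF: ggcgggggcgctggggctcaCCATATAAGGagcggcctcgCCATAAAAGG
ACTG1: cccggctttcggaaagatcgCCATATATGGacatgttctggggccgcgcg
FHL2: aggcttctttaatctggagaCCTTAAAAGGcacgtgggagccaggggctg

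EGR1 rose while SRF, ACTG1, and FHL2 fell, so genes with this box in the window moved in both directions. A CArG box was found in 1.29% of the 27305 promoters of the RefSeq table, in 1.04% of the 11529 tested genes with a window, in 1 of 151 genes that rose at least 2-fold (0.662%) and in 4 of 194 that fell at least 2-fold (2.06%). A match describes the letters and not a bound site. No box was found in the windows of FOS, FOSB, or EGR2. Bases more than 250 upstream of a start were not searched, so these values do not show that a gene lacks the box.

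AP-1 genes, which encode the FOS, JUN, ATF, and MAF partners of leucine zipper dimers, split by member. FOS went from 8.52, 8.68, and 9.04 CPM to 294, 328, and 392 CPM, a 38.6-fold rise (log2 fold change 5.27 ± 0.10 (SE), adjusted p = 5.08e-23, edgeR). FOSB rose 11.4-fold, ATF3 rose 5.95-fold, JUNB rose 4.82-fold, and JUN rose 4.35-fold. The FOS relatives FOSL1 and FOSL2 went the other way: FOSL1 fell from 43.8 ± 0.52 to 18.9 ± 1.54 CPM and FOSL2 from 167 ± 11.3 to 98.5 ± 3.27 CPM (SD, n = 3). MAFK, a small MAF protein that dimerizes with them, fell 2.07-fold. In all, 7 of 13 tested members rose and 4 fell (84.6% called, against 34.1% of all genes tested), with a median of 0.38.

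Genes for proteins that shorten the life of mRNAs or restrain growth also rose. ZFP36, which binds AU-rich mRNAs and recruits deadenylases, went from 29.0, 23.8, and 25.01 CPM to 146, 146, and 167 CPM (5.87-fold), and ZFP36L1, its relative, from 221, 209, and 208 CPM to 777, 721, and 779 CPM (3.57-fold). ZFP36L2, the remaining member of that family, was at 179 ± 6.49 and 168 ± 9.29 CPM (adjusted p = 0.187). IER2 rose 5.83-fold, TOB1, an antiproliferative protein of the BTG family, rose 3.11-fold, and PNRC1 rose 3.08-fold. GADD45A, a stress sensor, fell 1.44-fold, and IER3 was not called (1.48 ± 0.13 and 2.01 ± 0.19 CPM, adjusted p = 0.182). The list had 12 of 18 tested members higher and 1 lower (72.2% called, against 34.1% of all genes tested), with a median of 0.80.

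The 14 tested KLF genes encode zinc finger factors of epithelial growth and differentiation. Of these, 10 rose and 2 fell (median 0.41, 85.7% called against 34.1% of all genes tested). KLF6 had the largest of these rises, from 142 ± 3.04 to 492 ± 29.1 CPM. KLF10, a TGF-beta and serum response gene, rose 2.68-fold, KLF4 rose 2.20-fold, and KLF9 rose 1.41-fold, while KLF16 fell 1.56-fold. MYC went from 388, 426, and 383 CPM to 1032, 986, and 1034 CPM, a 2.55-fold rise, and its relative MYCN rose 1.89-fold. MNT, a repressor that competes with MYC for its partner MAX, fell 2.05-fold. Of 13 tested members of the MYC network 5 rose and 2 fell (53.85% called). Their median was 0.14, and -0.06 under spike-in scaling.

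DUSP1, a phosphatase that turns off p38 and JNK, went from 35.8, 35.8, and 37.99 CPM to 730, 750, and 787 CPM, a 20.7-fold rise (log2 fold change 4.37 ± 0.07 (SE), adjusted p = 1.05e-24, edgeR). DUSP5, a nuclear phosphatase of ERK, rose 3.93-fold. DUSP6, the cytoplasmic one, was at 5.83 ± 0.82 CPM at 0 h and 7.54 ± 0.89 CPM at 0.5 h, a difference that was called (adjusted p = 0.0231, edgeR) but was lost without MB468 0 h replicate 1 or 3 or MB468 0.5 h replicate 3. DUSP16 fell 1.96-fold. Of 17 tested MAP kinase feedback genes 9 rose and 3 fell (70.6% called, against 34.1% of all genes tested), with a median of 0.21. TRIB1, a pseudokinase that hands C/EBP-alpha to a ubiquitin ligase, had the smallest p of any riser named here (48.3 ± 1.49 to 302 ± 14.3 CPM, adjusted p = 1.53e-33, edgeR). RASD1, a small G protein that dexamethasone induces, rose from 0.160 ± 0.109 to 2.15 ± 0.74 CPM, so its 12.6-fold change rests on few counts.

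The promoters of DUSP1 and ISL2, a LIM-homeodomain gene that rose 7.50-fold from 0.918 ± 0.095 CPM, are shown because both hold the full cAMP response element TGACGTCA, the site of CREB and ATF proteins. Capitals mark it. The site begins 125 bases upstream of the start of DUSP1 at chr5:172771293-172771340 (minus strand), and 37 bases upstream of the start of ISL2 at chr15:76336716-76336763 (plus strand).
DUSP1: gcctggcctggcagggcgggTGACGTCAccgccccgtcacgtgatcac
ISL2: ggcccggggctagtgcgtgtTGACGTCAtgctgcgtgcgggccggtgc

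TGACGTCA was found in 1.98% of all 27305 promoters, in 3.13% of tested genes, in 9 of the 151 genes that rose at least 2-fold (5.96%) and in 6 of the 194 that fell (3.09%). Its first 5 letters, TGACG, were in 25% of all promoters, in 33.4% of those of tested genes, in 29.1% of those of the risers and in 21.6% of those of the fallers, so both groups were below the tested genes.

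**Figure D2:**
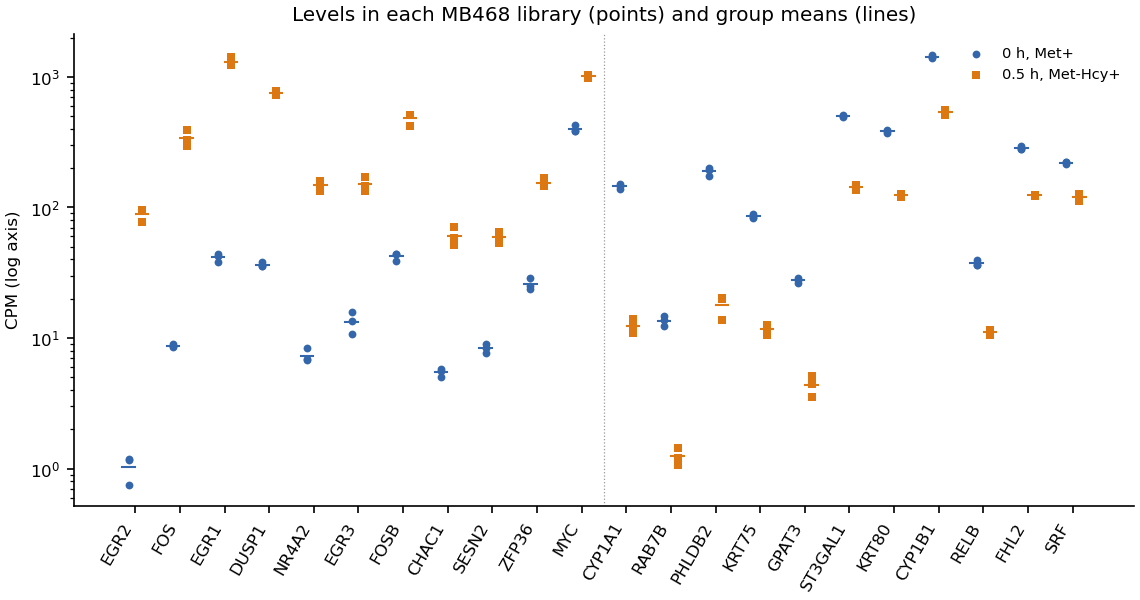
CPM on a log axis in each of the 3 MB468 0 h libraries (circles) and the 3 MB468 0.5 h libraries (squares) for 11 genes that rose, left of the dotted line, and 11 that fell, with lines at the group means. The groups do not overlap for any of these genes, but most of them were named by a rule that requires this. Of all genes tested, 43.6% had groups without overlap. The libraries of a group lie close together, as for DUSP1 at 730 to 787 CPM.

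Notch targets and inhibitors of differentiation were among the other risers. HES1, a Notch target and repressor that oscillates with a short period, went from 43.2, 46.0, and 44.7 CPM to 205, 198, and 178 CPM (4.35-fold), and NRARP, a Notch feedback gene, rose 4.74-fold. In the Notch list 3 of 7 tested members rose and 0 fell (42.9% called, against 34.1% of all genes tested). The median of 0.45 ran from 0.16 without MB468 0.5 h replicate 1 to 0.82 without MB468 0 h replicate 2. It was 0.78 without MB468 0.5 h replicate 3. ID2 rose 3.29-fold, ID1 rose 2.66-fold, and ID4 rose 2.50-fold; their proteins have no DNA-binding domain and hold bHLH factors off DNA. BAMBI, a decoy receptor of TGF-beta signals, rose 2.54-fold, SMAD7, an inhibitor in the same pathway, rose 1.45-fold, and the TGF-beta feedback gene PMEPA1 fell 2.14-fold. Of 17 tested members of the TGF-beta and ID list 7 rose and 5 fell (70.6% called). Their median of 0.05 was -0.15 under spike-in scaling and -0.03 without MB468 0.5 h replicate 3. BHLHE40, a repressor of clock genes, rose 4.24-fold, in a clock list with 7 of 18 members higher and 5 lower (66.7% called, median 0.12). That median was -0.08 under spike-in scaling, 0.0182 without MB468 0 h replicate 1, and 0.0455 without MB468 0.5 h replicate 3.

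Some target genes of ATF4 and CHOP were higher at 0.5 h. ATF4 is the factor made when amino acids run short, largely by a change in translation of its mRNA, and with CHOP it drives genes of amino acid supply and stress. CHAC1, which degrades glutathione, went from 4.99, 5.78, and 5.61 CPM to 58.6, 51.3, and 70.6 CPM, a 10.9-fold rise (log2 fold change 3.45 ± 0.10 (SE), adjusted p = 4.13e-25, edgeR). SESN2 and DDIT4, both inhibitors of mTORC1, rose 7.12-fold and 7.11-fold. DDIT3, the gene of CHOP, rose from 3.58 ± 0.48 to 14.2 ± 1.93 CPM, and FGF21, a secreted metabolic hormone, from 5.76 ± 0.19 to 16.3 ± 3.88 CPM (SD, n = 3). VLDLR, VEGFA, SLC38A2, a glutamine and alanine importer, and TRIB3 rose by 2.37-, 2.30-, 1.72-, and 1.50-fold.

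ATF4 mRNA itself was at 1131, 1142, and 1136 CPM and at 1174, 1228, and 1182 CPM, which was not called (adjusted p = 0.0918, edgeR). The amino acid synthesis genes ASNS and PHGDH had log2 fold changes of 0.007 ± 0.069 and 0.02 ± 0.09 (SE), with adjusted p of 0.957 and 0.881 (edgeR). SLC7A5, which imports Met and other large neutral amino acids, fell from 1941 ± 39.5 to 1290 ± 119 CPM, and ATF5 fell 1.57-fold. Of 34 tested ATF4 and CHOP targets 18 rose and 4 fell (64.7% called), with a median of 0.16 that was -0.04 under spike-in scaling. In MB468res-R8, 17 of them rose and 4 fell, with a median of 0.14. ATF3, a member also counted under AP-1, is a serum response gene too. Among chaperones of the endoplasmic reticulum, 2 of 15 rose and 2 fell, with a median of 0.05, or -0.15 under spike-in scaling. The share called was 26.7%, against 34.1% of all genes tested. HERPUD1, which acts in the disposal of misfolded proteins, was one that rose (2.48-fold), whereas the major chaperone gene HSPA5 was at 741 ± 7.01 and 784 ± 11.8 CPM (adjusted p = 0.0947, edgeR).

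Genes of G2 and mitosis were higher by small amounts, with 13 of 14 tested members called higher and 0 lower (92.9% called). Their median was 0.30, or 0.10 under spike-in scaling. CENPE, a kinetochore motor, rose from 59.9 ± 1.65 to 108 ± 8.35 CPM. TOP2A rose 1.58-fold, CENPF rose 1.55-fold, and MKI67, the proliferation marker, rose 1.23-fold. UBE2C was the member not called (165 ± 8.67 and 173 ± 4.17 CPM, adjusted p = 0.252, edgeR). Of 13 tested cyclin and inhibitor genes of G1, 3 rose and 2 fell (38.5% called, against 34.1% of all genes tested).

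Targets of the aryl hydrocarbon receptor (AHR), a sensor of planar aromatic compounds, were mostly lower, and among the genes named here CYP1A1 had the largest fall. CYP1A1, a cytochrome P450 that AHR induces, at chr15:74719542-74725528 on GRCh38, went from 147, 138, and 150 CPM to 12.1, 10.9, and 13.95 CPM, a 12-fold fall (log2 fold change -3.58 ± 0.08 (SE), adjusted p = 1.65e-27, edgeR). CYP1B1, another P450 that it induces, went from 1412, 1407, and 1467 CPM to 562, 510, and 538 CPM (2.66-fold lower). TIPARP, an AHR target that represses the receptor, fell 2.28-fold. The receptor gene AHR itself was at 236 ± 3.23 and 270 ± 19.97 CPM, called higher (adjusted p = 0.00162, edgeR) with a log2 fold change of 0.20 that was -0.004 under spike-in scaling. Of 10 tested members 7 fell and 2 rose (90% called, against 34.1% of all genes tested), with a median of -0.86. The core of the xenobiotic response element, GCGTG, was in 41.8% of the promoters of genes that fell at least 2-fold, 45.0% of those that rose, and 49.8% of those of all tested genes.

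In a list of actin cytoskeleton genes and targets of SRF and YAP, 12 of 17 tested members fell and 3 rose. The median was -0.31, and 88.2% were called, against 34.1% of all genes tested. EGR1 and FOS, SRF targets that rose, were counted in other lists. SRF went from 223, 214, and 224 CPM to 126, 112, and 121 CPM. VCL, which links integrins to actin, went from 786, 822, and 839 CPM to 453, 445, and 437 CPM, and the focal adhesion gene ZYX fell 1.84-fold. FHL2, with the CArG box shown above, went from 282, 295, and 281 CPM to 126, 123, and 125 CPM (2.30-fold lower). TAGLN fell 2.33-fold and THBS1, a secreted adhesive protein, fell 1.84-fold. The actins themselves fell by less: ACTG1 from 5963 ± 158 to 4642 ± 8.19 CPM and ACTB from 6678 ± 321 to 5744 ± 89.4 CPM (SD, n = 3). CTGF and CYR61, secreted targets of YAP in the same list, rose 2.08-fold and 1.39-fold.

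PHLDB2, a protein that anchors microtubules to the cell cortex near focal adhesions, went from 193, 200, and 174 CPM to 19.8, 20.4, and 13.8 CPM, a 10.2-fold fall (adjusted p = 2.76e-19, edgeR). RAB7B, a small GTPase of endosomes, fell 11.1-fold, CYP24A1, which degrades active vitamin D, fell 9.67-fold from 6.59 ± 1.84 CPM, ANKRD33B fell 8.89-fold, HLX, a homeobox gene, fell 7.77-fold, and PCDH7, a protocadherin, fell 6.16-fold. Of these, HLX and PCDH7 were below 1 CPM at 0.5 h, as was CYP24A1. Among abundant genes, ST3GAL1, a sialyltransferase, fell 3.47-fold from 501 ± 12.4 CPM, SLC20A2, a phosphate transporter, fell 2.52-fold, NEDD4L, a ubiquitin ligase of ion channels, fell 2.53-fold, and PHLDA1 fell 2.41-fold.

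Several keratin genes fell at 0.5 h. KRT75 went from 85.0, 88.7, and 83.0 CPM to 12.5, 12.1, and 10.6 CPM (7.2-fold lower), KRT80 went from 392, 375, and 387 CPM to 127, 123, and 121 CPM (3.10-fold lower), and KRT6B fell 2.45-fold. KRT17 fell 1.62-fold, KRT7 fell 1.45-fold, and KRT5 fell 1.18-fold. KRT6B and KRT75 have close relatives among the keratins, and the counting may have divided reads between them. Of 11 tested epithelial markers 5 fell and 2 rose (63.6% called, against 34.1% of all genes tested), with a median of -0.05. KRT8, KRT18, KRT19, and KRT14 were not called.

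NF-kB genes went both ways, with 10 of 19 tested members lower and 5 higher (78.95% called, against 34.1% of all genes tested). Their median was -0.21. RELB, a subunit of the noncanonical arm, went from 39.9, 36.0, and 36.2 CPM to 10.6, 11.2, and 11.5 CPM (3.39-fold lower), and the adhesion gene ICAM1 fell 2.01-fold. The inhibitor gene NFKBIA rose 1.26-fold. The cytokine genes CXCL2 and IL6 rose at low levels, CXCL2 from 1.07 ± 0.39 to 4.75 ± 0.85 CPM and IL6 from 2.54 ± 0.67 to 9.25 ± 1.28 CPM (SD, n = 3).

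Ligands of the EGF receptor, which this line carries at a high level, were also divided. AREG fell 3.38-fold from 6.14 ± 0.79 CPM, EPGN fell 6.5-fold from 2.24 ± 0.34 CPM, and EREG fell 1.69-fold, while HBEGF rose 1.36-fold. EGFR itself was at 2196, 2253, and 2122 CPM and at 2479, 2339, and 2375 CPM, called higher (adjusted p = 0.0104, edgeR), with a log2 fold change of 0.13 that was -0.07 under spike-in scaling; the call was lost without MB468 0 h replicate 3 or MB468 0.5 h replicate 1. Of 12 tested members 5 rose and 5 fell (83.3% called, against 34.1% of all genes tested). Their median of 0.01 was -0.04 without MB468 0 h replicate 3.

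Ribosome biogenesis genes fell nearly as a block, with 19 of 20 tested members lower and 0 higher (median -0.32). The share called was 95%, against 34.1% of all genes tested. URB2 fell 1.82-fold, RRP12 fell 1.63-fold, NOP56, a core protein of box C/D snoRNPs, fell 1.47-fold, and NCL, the nucleolin gene, fell from 1985 ± 43.6 to 1618 ± 105 CPM. NPM1 was the member not called (adjusted p = 0.0699, edgeR). Of the genes of the ribosomal proteins themselves, 1 of 83 was called higher and 3 lower (4.82% called), with a median of -0.02. Of 14 tested targets of NRF2, the factor of the antioxidant response, 9 fell and 0 rose (64.3% called), with a median of -0.17. TXNRD1, which reduces thioredoxin, fell 1.51-fold and SRXN1 fell 1.42-fold, and HMOX1 was at 112 ± 4.57 and 99.6 ± 16.5 CPM (adjusted p = 0.143, edgeR).

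The AP-1 site TGANTCA was in 30 of the 194 promoters of genes that fell at least 2-fold (15.5%), against 5 of the 151 that rose (3.31%), 4.84% of tested genes, and 7.76% of all 27305 promoters. TFPI2, an inhibitor of serine proteases, and CPA4, a carboxypeptidase, are shown as examples with this site near the start, in capitals. TFPI2 fell 3.36-fold and CPA4 fell 3.02-fold, to 7.30 ± 1.19 and 5.04 ± 0.20 CPM (SD, n = 3). The site begins 87 bases upstream of the start of TFPI2 at chr7:93890814-93890860 (minus strand) and 48 and 15 bases upstream in CPA4 at chr7:130293093-130293160 (plus strand).
TFPI2: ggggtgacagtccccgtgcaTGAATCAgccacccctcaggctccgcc
CPA4: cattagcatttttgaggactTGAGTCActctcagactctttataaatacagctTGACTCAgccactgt

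The match describes letters in a window of 300 bases and says nothing of which factor was bound. Both genes were chosen from the fallers with this site after their values were seen. The E-box CACGTG was in 8.61% of the promoters of risers, 7.22% of those of fallers, and 9.84% of those of tested genes.

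**Figure D3:**
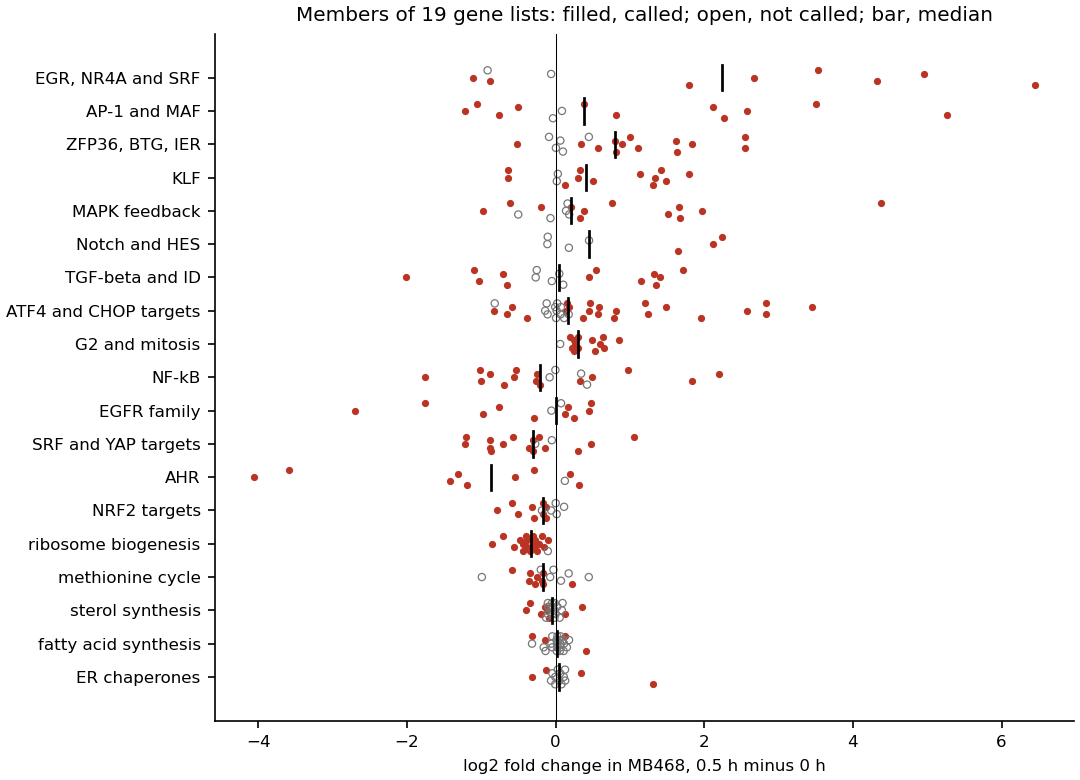
Log2 fold change in MB468 at 0.5 h (horizontal axis) of each tested member of 19 gene lists, filled where called and open where not, with a bar at the list's median. The EGR and NR4A list has its median at 2.23, the AHR list at -0.86, and the sterol and fatty acid synthesis lists lie near 0.

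At 0.5 h, 16% of fatty acid synthesis genes and 24% of beta-oxidation genes were called, against 34.1% of all genes tested. In the lipid droplet list 43.8% were called, and 3 of 16 fell at least 2-fold, as did 1.99% of all genes tested. Of 25 tested genes of fatty acid synthesis 2 rose and 2 fell, with a median of 0.03, or -0.18 under spike-in scaling. FASN, the fatty acid synthase, was at 2162, 2086, and 2068 CPM and at 2140, 2030, and 2363 CPM (adjusted p = 0.63, edgeR), and the desaturase gene SCD was at 1943 ± 49.5 and 2039 ± 42.1 CPM (adjusted p = 0.185). The groups overlap for FASN. Of 25 tested beta-oxidation genes 4 rose and 2 fell, with a median of 0.02, or -0.18 under spike-in scaling. In the sterol list 6 of 24 fell and 2 rose, with a median of -0.05, and the share called (33.3%) was close to that of all genes. HMGCS1, an early enzyme of the mevalonate pathway, fell 1.32-fold, and INSIG1, which holds back the sterol sensor SCAP, rose 1.28-fold, a call lost without MB468 0 h replicate 2 or MB468 0.5 h replicate 1.

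Genes for making phosphatidylcholine and phosphatidylethanolamine had 1 of 17 tested members higher and 5 lower (median -0.06). The share called was 35.3%, close to the 34.1% of all genes tested. LPIN1, a phosphatidate phosphatase, and PISD, which makes phosphatidylethanolamine in mitochondria, both fell 1.42-fold. In the lipid droplet list 7 of 16 fell and 0 rose (median -0.12, or -0.19 without MB468 0.5 h replicate 3). GPAT3, an acyltransferase at the start of triglyceride synthesis, went from 28.0, 26.3, and 29.1 CPM to 5.15, 4.44, and 3.55 CPM, a 6.08-fold fall (adjusted p = 1.67e-21, edgeR), and MGLL, a monoglyceride lipase, fell 2.18-fold from 3.95 ± 0.53 CPM.

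The genes of the Met cycle itself changed by small amounts, with 8 of 16 tested members lower and 1 higher. The median was -0.17, and 56.25% were called, against 34.1% of all genes tested. MAT2A, which makes S-adenosylmethionine from Met, went from 380, 383, and 401 CPM to 321, 301, and 298 CPM (log2 fold change -0.34 ± 0.05 (SE), adjusted p = 2.42e-07, edgeR). Its 0.5 h libraries were all below its 0 h libraries, and groups without overlap were seen for 43.6% of all genes tested. MTR, the methionine synthase, fell 1.21-fold and AHCY, which frees Hcy from S-adenosylhomocysteine, fell 1.12-fold, while MAT2B, the regulatory subunit of MAT2A, rose 1.16-fold.

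Of 15 tested heat shock genes 3 rose and 2 fell, with DNAJB1 1.40-fold higher and HSPA8, the constitutive chaperone, 1.37-fold lower. The share called was 33.3%, against 34.1% of all genes tested. Of 13 interferon genes 1 rose and 4 fell (38.5% called). Of 8 TXNIP and glucose genes 2 rose and 3 fell (62.5%), and of 4 metallothionein and zinc genes 0 rose and 1 fell (25%). Zinc finger ZNF genes had 82 of 466 higher and 100 lower (39.1% called). LINC RNAs had 10 of 187 higher and 24 lower (18.2%), with 2 and 6 of them at least 2-fold. SNHG host genes had 2 of 19 higher and 7 lower (47.4%). RNAs without a poly(A) tail had 1 of 134 higher and 12 lower (9.7%), with 1 and 8 at least 2-fold.

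Genes that rose at least 2-fold were short. Their median span on the genome was 12.8 kb, against 24.5 kb for those that fell at least 2-fold and 29.0 kb for the tested genes with a known span. Their median number of exons was 4, against 8 for all tested genes, and 26.2% of them had at most 2 exons, against 9.54%. Genes under 10 kb had risen at least 2-fold in 2.75% of cases and genes of 100 kb or more in 0.951%. The smaller rises had the opposite order, since 9.46% of genes under 10 kb and 25.3% of genes of 100 kb or more were called higher. ARID5B, which spans 195 kb and rose 2.79-fold (46.2 ± 1.37 to 128 ± 6.52 CPM), was 1 of 25 such risers of 100 kb or more. EGR1, EGR2, FOS, and DUSP1 span between 3.10 and 7.17 kb, and PHLDB2, which fell, spans 244 kb.

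MB468res-R8 cells given the same change of medium showed much of the same response. In MB468res-R8, 4960 genes (33.7%) were called at 0.5 h against its own 0 h, 2566 higher (17.4%) and 2394 lower (16.2%), and 528 (3.58%) changed at least 2-fold. The comparison shares no library with that in MB468. Of the calls, 3453 were made in both lines, which is 68.8% of those of MB468 and 69.6% of those of MB468res-R8, and 3423 of them had the same direction. The log2 fold changes of the lines correlated across all genes (Pearson r = 0.629, Spearman rho = 0.648) and across 6390 genes whose mean log2 CPM was 5 or more (r = 0.898), and genes are not independent replicates. Of the 207 genes that rose at least 2-fold in MB468, 155 (74.9%) were called higher in MB468res-R8, 1 lower, and 51 not called. Of the 293 that fell, 206 (70.3%) were called lower, 0 higher, and 87 not called.

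FOS had log2 fold changes of 5.27 in MB468 and 5.17 in MB468res-R8, with a difference of 0.11 ± 0.14 (SE, adjusted p = 0.833, edgeR). DUSP1 had 4.37 and 4.53, MYC had 1.35 and 1.42, PHLDB2 had -3.35 and -3.42, and DDIT4 had 2.83 and 2.89, and no line difference was called for these genes. G2 and mitosis genes were called higher for 14 of 14 members in MB468res-R8, and ribosome biogenesis genes lower for 18 of 20.

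The difference between the lines was tested as the response of MB468 minus that of MB468res-R8. It was called for 443 genes (3.01%), 225 positive (1.53%) and 218 negative (1.48%), and 38 of these (0.258% of genes tested) were at least 2-fold. Without MB468res-R8 0 h replicate 1 the number was 283, and under spike-in scaling it was 101, of which 20.8% were positive in place of 50.8%. Of the 443 genes, 209 were called in the same direction in both lines, 97 of them with the larger change in MB468, while 92 were called in MB468 alone, 112 in MB468res-R8 alone, and 30 in opposite directions.

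Several of the early genes rose further in MB468. CHAC1 had a log2 fold change of 3.45 in MB468 and 2.06 in MB468res-R8 (difference 1.39, adjusted p = 2.69e-08, edgeR), and SESN2 had 2.83 and 1.51 (difference 1.32, adjusted p = 3.46e-09). EGR2 (difference 1.26, adjusted p = 0.00482), EGR3 (1.27), NR4A1 (1.32), EGR4 (0.87), JUN (0.86), and EGR1 (0.67) were also higher in MB468, and for FOS, FOSB, and NR4A2 no difference was called. Among targets of ATF4 and CHOP, 5 of 34 had a positive difference and 0 a negative one, against 1.53% and 1.48% of all genes tested. VLDLR was at 0.56, VEGFA at 0.32, and SLC7A5, which fell in both lines, at 0.56. NDRG1, a stress and hypoxia gene, fell by 0.30 on the log2 scale in MB468 and by 1.51 in MB468res-R8 (difference 1.21, adjusted p = 8.72e-14, edgeR). ADM, the gene of adrenomedullin, was not called in MB468 (21.3 ± 1.14 and 20.9 ± 1.72 CPM) and fell by 1.17 in MB468res-R8. LMO7 rose by 0.27 in MB468 and fell by 0.58 in MB468res-R8, and FOXC1, with 0.08 in MB468 and -0.12 under spike-in scaling, fell by 0.86 in MB468res-R8.

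Other genes responded less or fell further in MB468. NUAK2, a kinase of the AMPK family, fell by 0.72 in MB468 and rose by 0.72 in MB468res-R8 (difference -1.44, adjusted p = 8.31e-11, edgeR). SMAD3, a TGF-beta signal transducer, went from 63.3, 73.6, and 65.0 CPM to 27.9, 26.1, and 28.4 CPM in MB468 (log2 fold change -1.30), against -0.23 in MB468res-R8, and ENC1, an actin-binding protein, had -1.03 against 0.06. The TGF-beta genes SMAD7 and TGIF1 rose by 0.54 and 0.46 in MB468 and by 1.58 and 1.04 in MB468res-R8. CYP1A1 fell further in MB468 (-3.58 against -2.50), as did CYP1B1 (-1.41 against -1.07). HES1 rose by 2.12 against 3.05, and NFKBIA by 0.33 against 0.92.

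**Figure D4:**
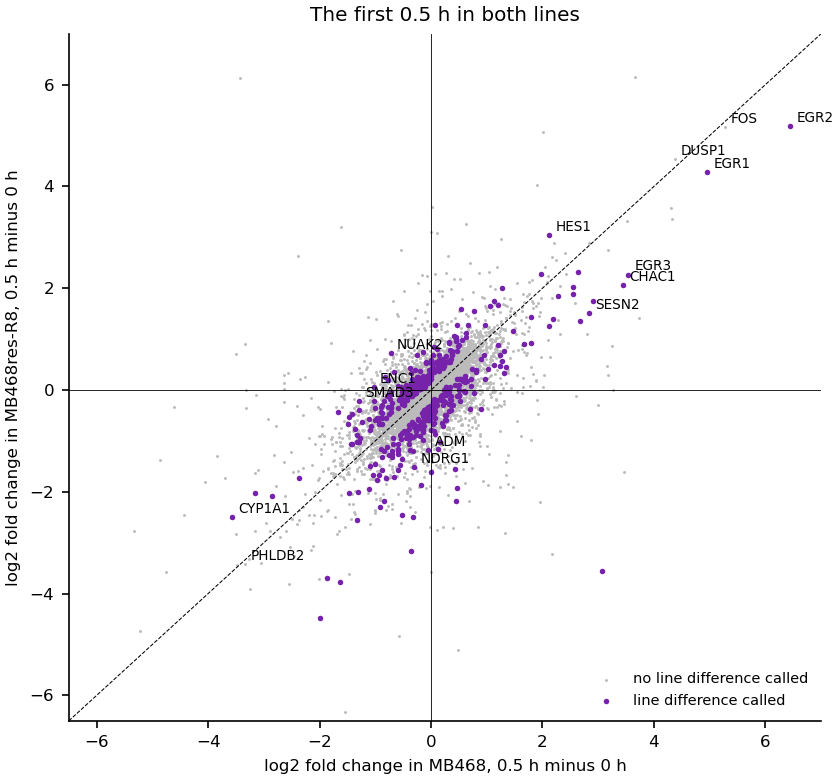
Log2 fold change at 0.5 h against 0 h in MB468res-R8 (vertical axis) against that in MB468 (horizontal axis), 1 point per gene, purple where the difference between the lines was called and gray where it was not, with a dashed line of equality. FOS, DUSP1, and PHLDB2 lie near the line, CHAC1 and SESN2 below it, NUAK2 above it, and 1 gene lies outside the axes.

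Much of the change had turned back by 2 h. Between 0.5 and 2 h in MB468, 4815 genes (32.7%) were called, 2505 higher (17.0%) and 2310 lower (15.7%) at 2 h. Against 0 h, 2425 genes (16.5%) were called at 2 h, with 8.50% of all genes tested higher and 7.95% lower, and 10402 (70.6%) at 12 h, with 34.6% higher and 36.0% lower. These comparisons share the 0 h or the 0.5 h libraries, so their values are given side by side. Of the 207 genes that rose at least 2-fold at 0.5 h, 99 were called higher than 0 h at 2 h and 115 at 12 h, and their median log2 fold change went from 1.33 at 0.5 h to 0.60 at 2 h and 0.64 at 12 h. Of the 293 that fell, 38 were called lower and 52 higher than 0 h at 2 h, and 151 were called lower and 50 higher at 12 h, with medians of -1.40, -0.04, and -0.71. Both sets were chosen by their change at 0.5 h, so smaller medians at other times can come in part from that choice. Without MB468 2 h replicate 2, 4353 genes were called between 0.5 and 2 h.

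FOS had means of 8.75, 338, 30.7, and 12.1 CPM at 0, 0.5, 2, and 12 h, and EGR2 had 1.03, 89.5, 6.57, and 3.54 CPM. EGR1 came down more slowly, with 41.7, 1302, 564, and 183 CPM, and NR4A1 was as high at 2 h (697 CPM) as at 0.5 h (662 CPM; adjusted p = 0.818 between them, edgeR). MYC was at 399, 1017, 870, and 509 CPM. The stress genes took several courses. CHAC1 had 5.46, 60.2, 42.1, and 113 CPM and SESN2 had 8.38, 59.8, 41.0, and 68.3 CPM, with the highest mean at 12 h. DDIT4, with 139, 984, 507, and 648 CPM, and FGF21, with 5.76, 16.3, 12.2, and 12.9 CPM, had the highest mean at 0.5 h. HERPUD1, at 110, 271, 184, and 124 CPM, and ATF3, at 47.97, 284, 204, and 44.6 CPM, were also highest at 0.5 h.

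Among the fallers, PHLDB2 had 189, 18.0, 267, and 60.5 CPM, higher at 2 h than at 0 h (log2 fold change 0.49, adjusted p = 9.73e-06, edgeR). KRT75 had 85.6, 11.7, 153, and 72.1 CPM and PHLDA1 had 349, 145, 520, and 344 CPM, so that both were also above their 0 h level at 2 h. RELB went from 37.4 CPM at 0 h to 11.1 CPM, and was at 37.0 CPM at 2 h. CYP1A1 was still lower than at 0 h at both later times, with 145, 12.3, 46.5, and 16.2 CPM. MAT2A, slightly lower at 0.5 h, was at 388, 306, 808, and 1502 CPM at the 4 times. FASN and INSIG1, at 2105 and 206 CPM at 0 h and 2178 and 264 CPM at 0.5 h, were at 640 and 19.6 CPM at 12 h.

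**Figure D5:**
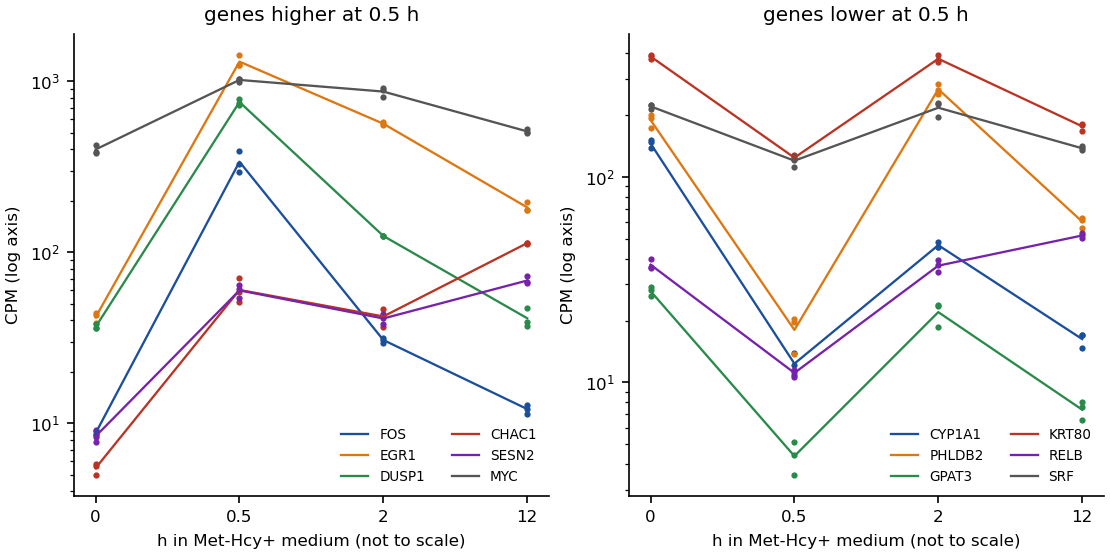
CPM on a log axis at 0, 0.5, 2, and 12 h in Met-Hcy+ medium (positions not to scale) in MB468 for 6 genes that were higher at 0.5 h (left) and 6 that were lower (right), with points for libraries and lines through the means of 3. FOS and DUSP1 peak at 0.5 h, CHAC1 is highest at 12 h with 113 CPM, and PHLDB2 is lowest at 0.5 h with 18.0 CPM.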

How the data were processed

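The authors sequenced poly(A) RNA with ERCC spike-ins as single-end reads of 100 bp, mapped the reads by HISAT2 on a GRCh38/hg38 reference that also held the spike-ins, and used featureCounts to count them over genes. The submitters' processing notes name HISAT2 2.1.0, Subread 1.5.3, DESeq2, and DESeq 1.22.2. The deposited count table holds whole-number counts per gene without normalization for 24 libraries, and the annotation release and strand setting are not given in the sources used here. The kit does not mark strand, so reads of overlapping genes cannot be told apart, and genes with near-identical copies, such as keratins, may share reads. A deposited table of size-factor normalized counts has no 0.5 h library and was not used. A deposited table of the authors' own comparison, with fold changes and p-values, was not used either.

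The tests used edgeR 4.0.16, with DESeq2 1.42.0 as an alternative and limma 3.58.1 beneath, in R 4.3.3, and figures were drawn in Python 3.11.15 with matplotlib 3.10.9. From 26645 gene entries, 92 spike-ins already set apart, 4 repeated symbols were dropped, filterByExpr (minimum count 10, minimum total 15) kept 14739 genes, and TMM factors scaled the libraries. A robust quasi-likelihood model with 8 group means over 24 libraries gave each contrast, with Benjamini-Hochberg adjustment over all genes and calls at an adjusted p under 0.05. CPM used the TMM effective library size, except in the sums and ranges for marker lists and RNAs without a poly(A) tail, which used library totals. The 2-fold limit is a log2 fold change of 1. Named genes are the 10 with the largest change and the 8 with the smallest p in each direction, among called genes with non-overlapping groups and a mean of 1 CPM or more, the 5 with the smallest p in each direction for the difference between the lines, and members of 40 gene lists. Some genes are not reported here. Members and lists were chosen with earlier results of these data known. Lists are described by counts and medians beside the median of -0.01 and the 34.1% called over all genes.

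The code was tested on simulated data. Replicates of a group differed by more than sampling noise, as measured by a chi-square per degree of freedom between pairs of libraries. It was 4.65 and 5.585 for the pairs with MB468 0.5 h replicate 3. The other pairs within MB468 0 h and 0.5 h were at 3.04 to 3.08. Alternatives were DESeq2 size factors and test, spike-in totals, 2 other filters, the compared libraries alone, a replicate block, an adjusted p of 0.01, and leaving out each library. Gene positions and exons come from GENCODE 44 and RefSeq on GRCh38.p14, which matched 14605 of the tested genes, and the promoter table held 11529 of them. Intervals were not computed for single libraries, and the depth per library, from 11745553 to 36496655 counts, limits the precision of genes near 1 CPM.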

Additional observations from a re-analysis of the deposited data

Results flagged for a closer look

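For 58 of the 161 genes named, the response at 0.5 h differed between MB468 and MB468res-R8 by the test of the difference itself. That test was edgeR's quasi-likelihood test at an adjusted p under 0.05, which called 3.01% of all genes tested. The 58 include the 5 genes in each direction that were named for the smallest p in this same test. Their calls were fixed by that choice, so 58 is not a share of genes named without regard to the difference. Values below are the log2 fold change of MB468 minus that of MB468res-R8. Under spike-in scaling the median of this difference over all genes was -0.26, in place of -0.01. The differences of single genes were not recomputed under the alternatives. Groups of 3 libraries are too small for a test of single outlying libraries.

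The difference was positive for 31 genes. Among immediate early genes it was 1.32 for NR4A1, 1.27 for EGR3, 1.26 for EGR2, 0.87 for EGR4, 0.86 for JUN, 0.67 for EGR1, 0.67 for IER2, 0.64 for KLF4, 0.53 for ZFP36, 0.42 for JUNB, 0.37 for KLF6, 0.32 for TRIB1, and 0.31 for ARID5B, all of which rose in MB468. Among stress genes it was 1.39 for CHAC1, 1.32 for SESN2, 0.56 for VLDLR, 0.54 for HERPUD1, and 0.32 for VEGFA, which rose in MB468, and 0.56 for SLC7A5, which fell in both lines. NDRG1 (1.21), ADM (1.13), FOXC1 (0.93), USP36 (0.63), KRT17 (0.61), IGFBP3 (0.55), and PMEPA1 (0.39) fell further in MB468res-R8 or fell there alone. ISL2 (1.15) and BAMBI (0.90) rose further in MB468, and LMO7 (0.85), CYR61 (0.59), and AHR (0.32) were called higher in MB468 and had a value below 0 in MB468res-R8.

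The difference was negative for 27 genes. It was -1.44 for NUAK2, -1.13 for ANKRD33B, -1.08 for ENC1, -1.08 for CYP1A1, -1.07 for SMAD3, -0.76 for KRT75, -0.66 for ICAM1, -0.45 for SLC20A2, -0.43 for ZYX, -0.35 for CYP1B1, -0.32 for SRF, -0.30 for PDLIM5, -0.26 for PXDN, -0.23 for TXNRD1, and -0.21 for VCL, all of which fell in MB468. It was -1.04 for SMAD7, -0.93 for HES1, -0.73 for SOX9, -0.61 for DUSP6, -0.59 for NFKBIA, -0.58 for TGIF1, -0.55 for HBEGF, -0.45 for ELF3, -0.39 for KLF9, -0.31 for DUSP5, and -0.26 for MKI67, which rose in MB468 and had a larger value in MB468res-R8. ZFP36L2 (-0.62) was not called in MB468 and rose in MB468res-R8.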

How the results depend on the processing

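The number of genes called in MB468 stayed within 1.5 times of 5021 under every alternative but the spike-in totals, which gave 3287. They also gave 2022 calls in MB468res-R8 and 101 for the difference between the lines. That difference numbered 237 at an adjusted p of 0.01 and 283 without MB468res-R8 0 h replicate 1. Requiring 10 counts in every library, which tests fewer genes, left 259 of 500 changes of at least 2-fold. Leaving out 1 library at a time gave 4148 to 4882 calls in MB468, 470 to 503 of at least 2-fold, 4183 to 4519 in MB468res-R8, 283 to 451 for the difference, and 4122 to 4501 between 0.5 and 2 h. A replicate block gave 4926, 488, 4871, 425, and 4740, and changed no call of a named gene. Same-numbered libraries of MB468 at 0 and 0.5 h correlated at -0.08, 0.18, and 0.13, so the numbers were not taken as pairs. Those of MB468res-R8 at these times correlated at 0.12, -0.08, and -0.09. Between MB468 and MB468res-R8 at 0.5 h the values were 0.25, 0.04, and 0.23. Between MB468 at 0.5 and 2 h they were -0.29, -0.03, and -0.37. The labels do not say whether same-numbered libraries were handled together. DESeq2's test gave 4926, 476, 4892, 511, and 4673. Leaving out MB468 2 h replicate 2, chosen after the data were seen, gave 5061, 512, 4987, and 435.

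Of 161 named genes 10 changed sign under an alternative. Under spike-in totals, the log2 fold change was -0.12 for FOXC1, -0.0704 for EGFR, -0.13 for ATF4, -0.20 for ASNS, -0.19 for PHGDH, -0.00365 for AHR, -0.12 for HSPA5, -0.16 for FASN, -0.13 for SCD, and -0.14 for UBE2C, and 14 called genes, AHR and EGFR among them, lost their call. Leaving out 1 library at a time gave -0.0387 to 0.0876 for ASNS, -0.0565 to 0.0954 for PHGDH, and -0.00332 to 0.0964 for FASN. List medians changed sign under spike-in totals for the MYC network (-0.0615), ATF4 and CHOP targets (-0.0363), TGF-beta and ID genes (-0.15), clock genes (-0.0769), and chaperones of the endoplasmic reticulum (-0.15). The EGR and NR4A median was -0.0578 with 10 counts in every library, where low members were not tested, and the TGF-beta and ID median ran from -0.0259 to 0.0826 when 1 library was left out. The causes of the shifts under spike-in totals were not tested.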

Other observations

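Outside the lists and the naming rule, 152 genes rose and 254 fell at least 2-fold, and the 8 of each with the highest mean CPM are given here, chosen after their values were seen. Transcription factor genes were among the abundant risers. ELF3, an epithelial ETS factor, went from 345 ± 15.7 to 797 ± 44.4 CPM (SD, n = 3), SOX9, a progenitor factor, from 225 ± 8.27 to 540 ± 32.4 CPM, and BCL6, a repressor, from 35.8 ± 2.73 to 193 ± 21.9 CPM. BCL6 was at 39.4 CPM at 2 h, whereas SOX9 was at 592 CPM. SGK1, a kinase that serum and glucocorticoids induce, rose 3.12-fold, RHOB, a short-lived small GTPase, rose 3.19-fold, ITPRIP rose 3.11-fold, KIT, a receptor tyrosine kinase, rose 2.16-fold, and NCOA7 rose 2.1-fold.

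The abundant fallers held genes of the cell surface, matrix, and adhesion. IGFBP3, a binding protein of insulin-like growth factors, went from 597 ± 43.3 to 216 ± 12.6 CPM and was at 654 CPM at 2 h. EPPK1, a plakin that binds keratin filaments, fell 3.21-fold, PXDN, a peroxidase that crosslinks collagen IV, fell 2.44-fold, ITGB8, an integrin subunit, fell 2.36-fold, PDLIM5, a protein of actin stress fibers, fell 2.13-fold, and SDC4, a heparan sulfate proteoglycan of focal adhesions, fell 2.05-fold. IFFO2 fell 2.12-fold and USP36, a nucleolar deubiquitinase, fell 2.05-fold. PXDN, at 350 CPM, and USP36, at 282 CPM, were above their 0 h means of 260 and 204 CPM at 2 h, as was SDC4 at 332 CPM against 285 CPM (adjusted p = 0.00499 for SDC4, edgeR).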
